A study of Mus musculus with 8 samples.

Results

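The genes described here are 35 genes of cholesterol and lipid synthesis and transport. They were found by matching a fixed list of gene symbols to the gene identifiers of the deposited tables, and each symbol matched 1 of the 55385 genes. RNA came from NSPCs, the neural stem and progenitor cells, which had been sorted out of freshly dissociated mouse cortex at postnatal day 7. The iKO group (n = 4 libraries) carried Nestin-CreERT2, a Cre recombinase driven by the Nestin promoter that enters the nucleus on tamoxifen, together with homozygous floxed Ash2l alleles and a tdTomato reporter. The WT group (n = 4 libraries) carried Nestin-CreERT2 and tdTomato without the floxed alleles, so both groups shared the recombinase and the reporter. The Nestin promoter limits recombination to cells that use it, and the sources used here give neither the timing of induction nor the sorting gate. The libraries are called biological replicates in the design text, but nothing states that each came from a separate animal, so each p-value reflects library-to-library spread alone, and that spread may be technical.

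Values are TPM, a transcript level scaled for length and library total. Read depth cannot be recovered from this unit and is unknown here. Ash2l, which encodes a core subunit of histone H3 lysine 4 methyltransferase complexes, stood at 7.54, 6.11, 7.69 and 7.18 TPM in iKO replicates 1 to 4 and at 18.1, 16.1, 19.2 and 17.2 TPM in WT. All 10 NSPC markers listed (among them Nes, Pax6 and Hes5) were present, with summed TPM of 2719 to 2743 in iKO and 2294 to 2324 in WT, and 4 of them rose and 3 fell. Markers of other cells moved with the groups. Astrocyte markers (1 of 12 higher and 10 lower) summed to 4892 to 5105 TPM in iKO against 7719 to 7986 TPM in WT, and microglia markers (1 of 10 higher and 7 lower) to 608 to 631 and 726 to 779 TPM. Endothelial markers (8 of 8 higher) summed to 804 to 866 and 453 to 463 TPM, and erythroid markers (5 of 5 tested higher, 7 listed) to 721 to 840.5 and 69.98 to 81.1 TPM. Oligodendrocyte markers (4 of 6 tested higher and 1 lower, 10 listed) summed to 233 to 251 and 205 to 218 TPM, and oligodendrocyte precursor markers (1 of 7 higher and 4 lower) to 1645 to 1719 and 1685 to 1708 TPM. No listed marker was at 0 in every library. The Y-linked gene Ddx3y stood between 22.5 and 24.8 TPM in the iKO libraries and between 49.5 and 56.8 TPM in WT, and Xist at 18.9 to 20.1 and 15.4 to 16.9 TPM, so transcripts of both sexes were in every library and their balance differed between the groups. The part of these differences in the results below was not tested, and in bulk RNA fewer cells of a type and less RNA per cell cannot be told apart.

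Cells build cholesterol from acetyl-CoA in a single chain of enzymes. The first enzymes make mevalonate and turn it into farnesyl diphosphate, and the later ones join farnesyl units into squalene, close the rings to lanosterol and trim lanosterol to cholesterol. Transcription of the chain is driven by the SREBP factors, which SCAP carries from the endoplasmic reticulum to the Golgi when sterols are scarce and which INSIG proteins hold back when sterols are plentiful. The SREBP encoded by Srebf2 favours cholesterol genes and that encoded by Srebf1 favours fatty acid genes. The LXR receptors, encoded by Nr1h2 and Nr1h3, sense oxidised sterols and drive export through ABCA1 and ABCG1 onto apolipoprotein E. The brain makes its own cholesterol, because plasma lipoproteins do not cross the blood-brain barrier, and astrocytes are a main source of apolipoprotein E there.

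Promoter sequences are shown first because SREBP factors act at promoters together with NF-Y and Sp1. RefSeq windows of 300 bases (250 before and 50 after an annotated start, build GRCm38.p6) were matched for 27 of the 35 genes, with 38 windows in all since some genes have several starts. Printed are the windows of the 4 called genes with the largest absolute fold change among those matched (Mvk, Tm7sf2, Srebf1 with its 3 annotated starts, and Mvd), and that of Hmgcs1, which was added after the search because it held the sterol response element. Capitals mark the motifs searched on both strands, which were TCACNCCAC (a sterol response element), CCAAT (NF-Y, ATTGG on the other strand), GGGCGG (Sp1, CCGCCC on the other strand) and CACGTG (an E-box).
Mvk (chr5:114444019-114444318, plus strand): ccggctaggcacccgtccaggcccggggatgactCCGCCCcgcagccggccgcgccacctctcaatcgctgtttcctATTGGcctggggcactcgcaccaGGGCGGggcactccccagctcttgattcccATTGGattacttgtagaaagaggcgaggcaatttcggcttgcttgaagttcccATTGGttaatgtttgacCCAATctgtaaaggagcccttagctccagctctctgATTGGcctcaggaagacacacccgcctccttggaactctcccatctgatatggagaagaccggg
Tm7sf2 (chr19:6067801-6068100, minus strand): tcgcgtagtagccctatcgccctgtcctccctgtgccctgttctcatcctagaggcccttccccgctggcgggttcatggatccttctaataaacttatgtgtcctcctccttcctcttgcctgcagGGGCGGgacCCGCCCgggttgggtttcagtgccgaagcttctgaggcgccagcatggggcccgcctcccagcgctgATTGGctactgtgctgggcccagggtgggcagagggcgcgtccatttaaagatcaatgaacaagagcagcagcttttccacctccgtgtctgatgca
Mvd (chr8:122443373-122443672, minus strand): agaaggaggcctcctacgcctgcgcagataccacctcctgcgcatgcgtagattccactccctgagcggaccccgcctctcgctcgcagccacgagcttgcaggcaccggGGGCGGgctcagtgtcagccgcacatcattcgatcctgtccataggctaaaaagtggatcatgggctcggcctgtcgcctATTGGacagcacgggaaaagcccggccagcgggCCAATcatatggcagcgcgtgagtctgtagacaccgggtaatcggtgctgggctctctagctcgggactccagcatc
Hmgcs1 (chr13:119690101-119690400, plus strand): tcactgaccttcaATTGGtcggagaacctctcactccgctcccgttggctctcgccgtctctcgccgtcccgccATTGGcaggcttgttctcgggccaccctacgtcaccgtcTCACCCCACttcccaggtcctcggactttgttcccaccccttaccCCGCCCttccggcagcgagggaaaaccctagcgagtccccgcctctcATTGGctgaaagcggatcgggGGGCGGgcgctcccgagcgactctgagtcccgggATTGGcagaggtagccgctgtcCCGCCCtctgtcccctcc
Srebf1 first window (chr11:60222532-60222831, minus strand): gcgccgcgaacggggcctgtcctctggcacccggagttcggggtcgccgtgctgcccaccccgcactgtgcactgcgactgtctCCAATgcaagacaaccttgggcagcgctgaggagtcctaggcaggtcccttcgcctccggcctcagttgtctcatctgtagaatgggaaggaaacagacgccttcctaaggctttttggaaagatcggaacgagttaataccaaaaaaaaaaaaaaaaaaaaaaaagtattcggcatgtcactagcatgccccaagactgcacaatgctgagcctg
Srebf1 second window (chr11:60220578-60220877, minus strand): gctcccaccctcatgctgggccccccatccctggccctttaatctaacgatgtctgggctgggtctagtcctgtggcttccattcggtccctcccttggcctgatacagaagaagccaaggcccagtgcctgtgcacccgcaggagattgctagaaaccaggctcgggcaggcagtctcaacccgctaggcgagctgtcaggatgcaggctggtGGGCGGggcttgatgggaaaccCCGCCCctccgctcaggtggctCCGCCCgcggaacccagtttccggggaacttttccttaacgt
Srebf1 last window (chr11:60210422-60210721, minus strand): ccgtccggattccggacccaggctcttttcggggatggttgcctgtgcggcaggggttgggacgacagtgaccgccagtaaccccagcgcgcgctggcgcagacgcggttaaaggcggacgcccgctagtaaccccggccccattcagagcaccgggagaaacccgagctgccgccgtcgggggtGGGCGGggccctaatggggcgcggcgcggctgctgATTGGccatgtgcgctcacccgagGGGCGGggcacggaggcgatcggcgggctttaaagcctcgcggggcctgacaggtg

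The Mvk window held 5 NF-Y boxes and 2 Sp1 boxes, and the Mvd window held 2 NF-Y boxes and 1 Sp1 box. The Tm7sf2 window held 1 NF-Y box and 2 Sp1 boxes. The Hmgcs1 window held 1 sterol response element, 4 NF-Y boxes and 3 Sp1 boxes. Over the 38 windows of the lipid genes, 21 (55.3%) held CCAAT, against 37.4% of the 32851 windows of the table. GGGCGG was in 25 windows (65.8%, against 35.7%), CACGTG in 7 (18.4%, against 7.15%) and TCACNCCAC in 1 (2.63%, against 1.24%). Windows of the same gene can share bases, so a stretch may be counted more than once. By gene, 20 of the 27 held CCAAT, 21 GGGCGG, 6 CACGTG and 1 TCACNCCAC, and no share by gene is given for the whole set of windows. These are letter matches in a short window, given as a description. They are not binding sites, and a window without a match says nothing about a factor.

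Setting iKO against WT addressed which of these transcripts differed where Ash2l was targeted. Of the 35 genes, 16 were higher in iKO, 9 were lower and 10 did not pass the test (limma on log2(TPM + 1), Benjamini-Hochberg adjusted p under 0.05 over 16413 genes). Among all tested genes 52.6% were called, 20.7% higher and 31.9% lower. The median log2 fold change was 0.10 for the 35 genes and -0.06 for all tested genes. The 4 iKO and 4 WT values did not overlap for 25 of the 35 genes, against 49.2% of all tested genes (19.2% higher and 29.9% lower). Most differences were modest: fold changes ran from -0.62 to 0.72 on the log2 scale, and 9 of the 25 called genes differed by under 0.2. Among all called genes 68.2% differed by under 0.5. Their share under 0.2 is not given here, so the size of the changes does not set the 35 genes apart. With trimmed mean scaling, under which 51.8% of all tested genes were called (25.9% higher and 25.9% lower), 19 of the 35 genes were higher and 5 lower. The authors' deposited table called 20 higher and 6 lower, beside 53.9% of all tested genes (27.8% higher and 26.1% lower). With a sex score as covariate, 1 of the 35 genes (Dhcr7, higher) passed, beside 2.58% of all tested genes (1.19% higher and 1.39% lower). Ddx3y and Xist, which enter this score, did not overlap between the groups, so this fit cannot tell sex balance and genotype apart.

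**Figure D1:**
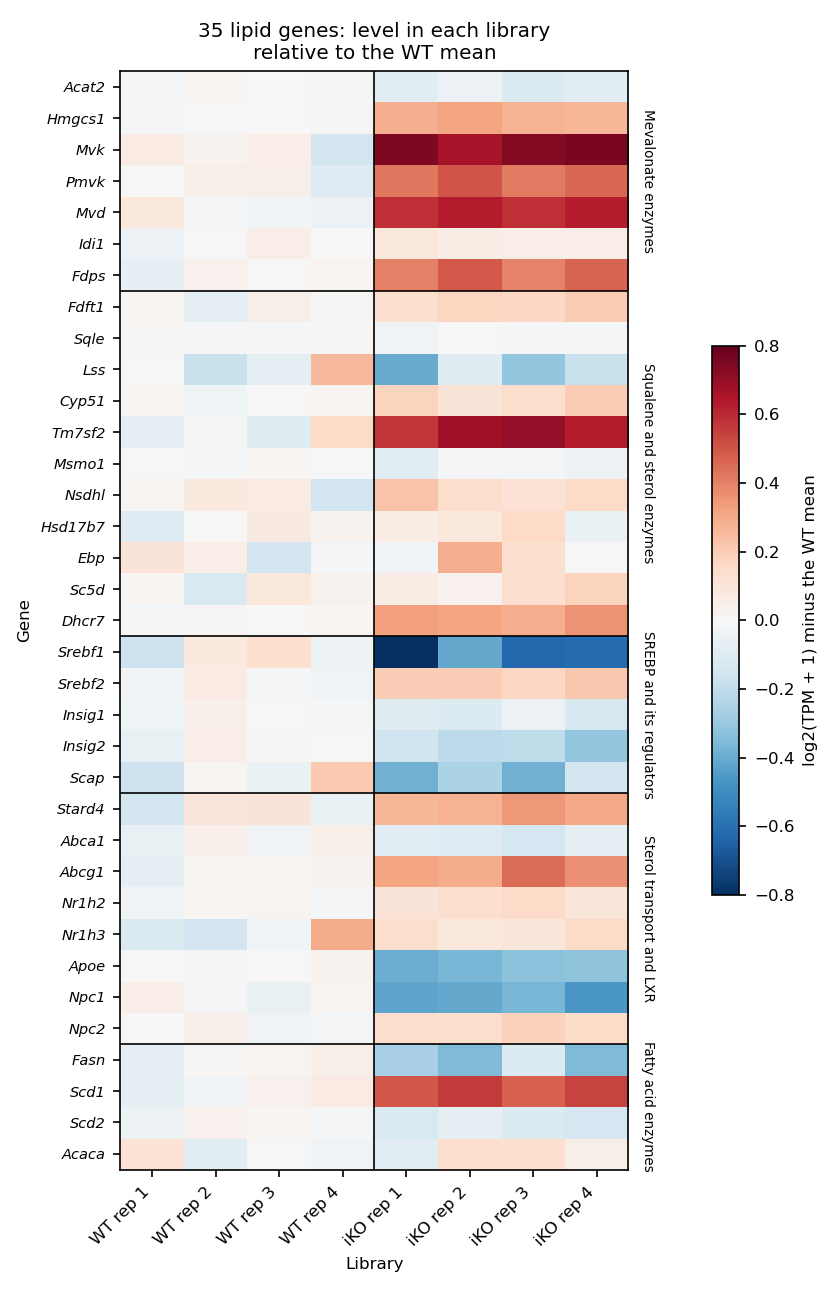
Level of each of the 35 genes (rows, ordered by role) in each library (columns), as log2(TPM + 1) minus the mean of the 4 WT libraries, with red higher and blue lower. Mvk, Pmvk, Mvd, Fdps, Tm7sf2 and Scd1 are red in all 4 iKO libraries, while Srebf1, Apoe and Npc1 are blue in all 4.

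Of the 7 enzymes of the mevalonate stretch, 5 were higher, 1 was lower and 1 did not pass. That is 85.7% called, beside 52.6% of all tested genes (20.7% higher and 31.9% lower). The median log2 fold change of the 7 was 0.44. Mvk (ENSMUSG00000041939.14), mevalonate kinase, stood at 64.4, 60.8, 64.0 and 64.7 TPM in iKO replicates 1 to 4 and at 39.8, 38.8, 39.5 and 34.3 TPM in WT. The lowest iKO library was thus well above the highest WT library, and the mean rose 1.67-fold (log2 fold change 0.72, SE 0.0511, adjusted p = 5.35e-06). Mvd (ENSMUSG00000006517.5), which decarboxylates mevalonate diphosphate to the first isoprenoid unit, stood at 81.3, 83.9, 81.4 and 83.7 TPM in iKO and at 57.2, 53.5, 53.1 and 52.1 TPM in WT. Its groups did not overlap either, and it rose 1.53-fold (SE 0.0342 on the log2 scale, adjusted p = 1.5e-06).

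Pmvk, the phosphomevalonate kinase that acts between these enzymes, stood at 216, 229, 216 and 222 TPM in iKO and at 162, 167, 167 and 150.2 TPM in WT. Every iKO library was above every WT library, and the level rose 1.37-fold (adjusted p = 1.44e-05). Fdps, which joins isoprenoid units into farnesyl diphosphate, stood at 209, 221, 208 and 218 TPM in iKO and at 151, 161, 158 and 160.2 TPM in WT. It rose 1.36-fold with no overlap (adjusted p = 4.55e-06). Hmgcs1, the cytosolic HMG-CoA synthase upstream of mevalonate, stood at 251, 255, 249 and 246 TPM in iKO and at 203, 205, 205 and 206 TPM in WT. Its rise was smaller, at 1.22-fold, but its libraries lay close together (SE 0.0171 on the log2 scale, adjusted p = 2.01e-06).

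The remaining mevalonate enzymes behaved differently from one another. Acat2, which joins acetyl-CoA units at the start of the chain, stood between 386 and 403 TPM in the iKO libraries and between 413 and 423 TPM in WT (log2 fold change -0.09, adjusted p = 0.00275). This small fall was not called with trimmed mean scaling (-0.02, adjusted p = 0.307), and the authors' deposited table gave 0.01. Its near-identical copy Acat3 had 4.82 TPM in iKO against 6.91 in WT, and the sum of both was 398 and 424 TPM. Idi1, the isomerase that supplies the second isoprenoid unit, stood at 135, 133, 132 and 132 TPM in iKO and at 123, 127, 132 and 127 TPM in WT, groups that overlapped (log2 fold change 0.06, adjusted p = 0.0674). The call for Idi1 depended on scaling, with 0.13 (adjusted p = 0.002) after trimmed mean scaling and 0.08 (adjusted p = 0.0247) without WT replicate 3.

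Idi1 is the uncertain member of this stretch, because a processed pseudogene, Gm13502, matched its transcript at 100% identity over 684 bases. Reads from one could have been credited to the other by the authors' counting. Gm13502 was listed at 159, 157, 149 and 157 TPM in iKO and at 104, 94.1, 107 and 101 TPM in WT. In TPM, which is scaled for length, it was above Idi1 in every iKO library and below Idi1 in every WT library. By the authors' mean normalized signal over all libraries it was far below Idi1, at 517 against 3488. A sum in TPM thus gives Gm13502 more weight than that signal would. The sum of both was 294, 289, 281 and 289.6 TPM in iKO and 227, 221, 239 and 228 TPM in WT, a difference of 0.33 on the log2(TPM + 1) scale. The summed levels did not overlap between the groups, unlike those of Idi1 alone. In the authors' deposited table the log2 fold change was 0.73 for Gm13502 and 0.15 for Idi1 (adjusted p = 1.48e-10).

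Downstream of farnesyl diphosphate, of 11 squalene and sterol enzymes, 5 were higher, none was lower and 6 did not pass (median log2 fold change 0.10). The called share was 45.5%, below the 52.6% of all tested genes (20.7% higher and 31.9% lower). These counts depended on scaling. With trimmed mean scaling Sqle (0.05, adjusted p = 0.0291) and Sc5d (0.16, adjusted p = 0.0247) were called higher as well. All tested genes were then 25.9% higher and 25.9% lower. With quantile normalization Sqle (-0.06, adjusted p = 0.0261) and Msmo1 (-0.08, adjusted p = 0.0168) were called lower, beside 25.4% of all tested genes higher and 25.8% lower. The highest fold change of these 11 was that of Tm7sf2 (ENSMUSG00000024799.16), a sterol reductase that shares its reaction with the lamin B receptor. It stood at 187, 201, 206 and 195 TPM in iKO and at 119.5, 127, 118 and 141 TPM in WT, a 1.56-fold rise with no overlap (log2 fold change 0.64, SE 0.0566, adjusted p = 2.06e-05). Dhcr7, which reduces the last double bond on one route to cholesterol, stood at 151, 150.2, 147 and 154 TPM in iKO and at 119, 121, 119.9 and 122 TPM in WT. These values left a clear gap, and Dhcr7 rose 1.25-fold (SE 0.0217 on the log2 scale, adjusted p = 4.15e-06).

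Fdft1, squalene synthase, rose from 86.5 ± 3.34 to 97.3 ± 2.07 TPM (SD, n = 4, adjusted p = 0.00262) and Cyp51, the lanosterol demethylase, from 129 ± 2.14 to 144 ± 4.24 TPM (SD, n = 4, adjusted p = 0.00108). A processed pseudogene of Fdft1, Gm6781, matched it at 97.4% identity over 1249 bases and stood at 1.15 TPM in iKO against 3.17 in WT. The sum of both differed by 0.13 on the log2(TPM + 1) scale, beside 0.17 for Fdft1 alone. Exons of Fdft1 overlap those of the more abundant Ctsb on the opposite strand over 774 bases, and no source used here says that strand was used in counting. Smaller opposite-strand overlaps join Cyp51 to Akap9, Npc1 to Rmc1 and Srebf1 to Rai1, and 532 bases of Tm7sf2 are shared with Vps51 on the same strand. Fdps shares 1124 bases on the same strand with Gm43738, listed at 0 TPM in both groups. Nsdhl, a sterol dehydrogenase, was at the edge of the threshold, with 19.0 to 20.6 TPM in iKO against 15.6 to 18.5 TPM in WT (adjusted p = 0.0493). The call for Nsdhl was lost without any 1 of the 4 iKO libraries or of WT replicates 1, 3 and 4 (log2 fold change 0.11 to 0.18, adjusted p up to 0.119). It was also lost with the replicate block (adjusted p = 0.0776).

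Sqle, squalene epoxidase and a main control point of the late pathway, stood at 293, 298, 297 and 297 TPM in iKO and at 301, 297, 297 and 301 TPM in WT. These values overlapped and differed by little (log2 fold change -0.01, SE 0.0143, adjusted p = 0.449). Msmo1, a methylsterol oxidase, stood between 249 and 262 TPM in the iKO libraries and between 262 and 267 TPM in WT (-0.04, adjusted p = 0.159). The sign of both turned with trimmed mean scaling and in the authors' deposited table. Lss, which closes the rings to lanosterol, was more variable, at 50.3, 62.4, 53.8 and 58.9 TPM in iKO and at 66.8, 58.9, 63.4 and 80.2 TPM in WT. Its groups overlapped (log2 fold change -0.25, SE 0.0987, adjusted p = 0.0623), and it was called lower without iKO replicate 2 (adjusted p = 0.0434) or WT replicate 2 (adjusted p = 0.0317). Hsd17b7, Ebp and Sc5d, which act on later sterols, stood at 73.1, 15.5 and 205 TPM on average in iKO, against 69.9, 14.4 and 192 TPM in WT, and did not pass (adjusted p = 0.355, 0.357 and 0.116). Sc5d was called higher with the replicate block (log2 fold change 0.10, adjusted p = 0.0365) and with trimmed mean scaling (0.16, adjusted p = 0.0247). The authors' deposited table called Sc5d (0.13, adjusted p = 5.49e-07), Hsd17b7 (0.17, adjusted p = 0.00384) and Sqle (0.07, adjusted p = 0.000491) higher. It called Lss lower (-0.16, adjusted p = 0.000225).

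Summed over the 7 mevalonate enzymes, the level was 1348, 1386, 1336 and 1359 TPM in iKO and 1150.3, 1176, 1173 and 1143 TPM in WT. For the 11 sterol enzymes the sums were 1477, 1517, 1528 and 1528 TPM in iKO and 1378, 1353, 1392 and 1421 TPM in WT. Both sums were higher in each iKO library than in any WT library. They are a description, since a few abundant genes weigh most in them.

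**Figure D2:**
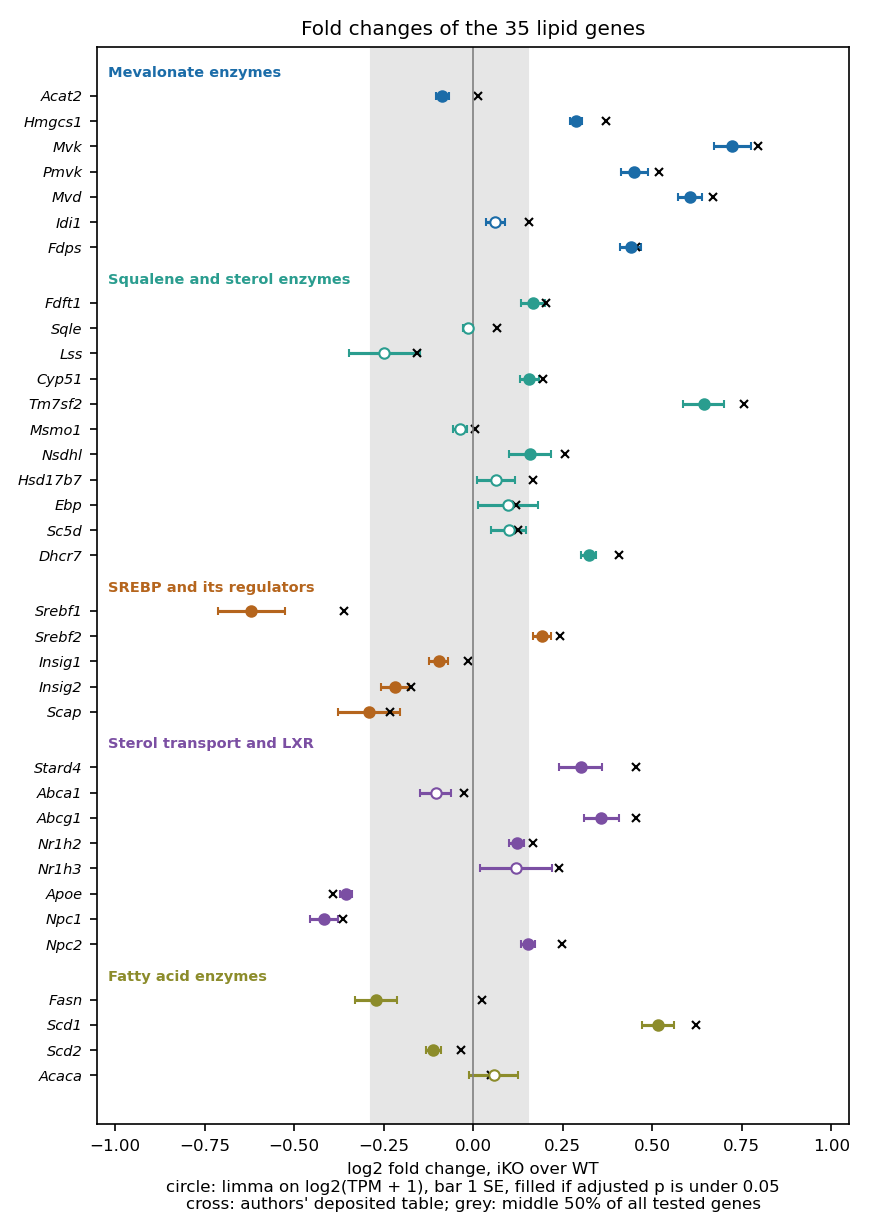
Log2 fold change of iKO over WT for each of the 35 genes, by role. Circles are limma estimates on log2(TPM + 1) with 1 SE, filled where the adjusted p was under 0.05, crosses are the authors' deposited values, and the grey band holds the middle 50% of all tested genes. Mvk (0.72), Tm7sf2 (0.64) and Mvd (0.60) lie farthest right and Srebf1 (-0.62) farthest left, and the largest gap between circle and cross is that of Fasn.

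The SREBP factors and their regulators moved in both directions. All 5 genes of this group passed the test, 1 higher and 4 lower, beside 52.6% of all tested genes (20.7% higher and 31.9% lower). Srebf2 stood at 138, 138, 134 and 139 TPM in iKO and at 118, 125, 119 and 117 TPM in WT, groups that did not overlap, and rose 1.14-fold (adjusted p = 0.000317). Srebf1 (ENSMUSG00000020538.15) went the other way, at 29.3, 39.5, 33.8 and 34.2 TPM in iKO and at 46.9, 55.7, 58.1 and 51.2 TPM in WT. Each iKO library was below each WT library, and the difference was -0.62 on the log2 scale (SE 0.0936, adjusted p = 0.000559). For Srebf1 the authors' deposited table gave -0.36, a smaller fall. The ratio of Srebf2 to Srebf1 was 3.48 to 4.69 in iKO and 2.05 to 2.52 in WT.

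Scap, the escort of SREBP, stood at 18.4, 20.2, 18.3 and 21.8 TPM in iKO and at 21.5, 24.5, 23.3 and 28.2 TPM in WT. Its groups overlapped, since iKO replicate 4 lay above WT replicate 1, and its fall (log2 fold change -0.29, adjusted p = 0.0204) was not called without iKO replicate 1 (-0.26, adjusted p = 0.054), without iKO replicate 3 (-0.26, adjusted p = 0.054) or with trimmed mean scaling (-0.23, adjusted p = 0.0535). Insig2 fell from 72.6 ± 2.27 to 62.2 ± 2.81 TPM (SD, n = 4, adjusted p = 0.00157). Insig1, the retention protein whose own gene is an SREBP target, differed least, between 105 and 111 TPM in the iKO libraries and between 112 and 118 TPM in WT (log2 fold change -0.10, adjusted p = 0.0145). The fall of Insig1 was not called with trimmed mean scaling (-0.03, adjusted p = 0.306), and the authors' deposited table gave -0.01 (adjusted p = 0.69).

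Among the 8 genes of sterol transport and LXR, 4 were higher, 2 lower and 2 did not pass. The called share was 75%, beside 52.6% of all tested genes (20.7% higher and 31.9% lower). Apoe (ENSMUSG00000002985.16), the main lipoprotein component of the brain, was the most abundant of the 35 genes, at 7232, 7403, 7579 and 7620.5 TPM in iKO and at 9490.3, 9425, 9503 and 9702 TPM in WT. No iKO library reached the WT range, and Apoe fell by 0.35 on the log2 scale (SE 0.0169, adjusted p = 5.39e-07). Its share of all TPM was 0.746 ± 0.0178% in iKO and 0.953 ± 0.0119% in WT (SD, n = 4). Astrocyte and microglia markers, of cells that also make apolipoprotein E, were lower in the same libraries, with the summed levels given above, and their part in this fall was not tested.

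The pair that moves cholesterol out of lysosomes split. Npc1, the membrane protein of the pair, stood at 23.5, 23.6, 24.3 and 22.7 TPM in iKO and at 33.0, 31.5, 30.4 and 32.1 TPM in WT (log2 fold change -0.42, SE 0.0398, adjusted p = 3.36e-05). Npc2, the soluble partner that hands sterol to it, stood at 252, 251, 259 and 253 TPM in iKO and at 227, 235, 224 and 226 TPM in WT (log2 fold change 0.15, adjusted p = 0.000288). Neither gene's groups overlapped, and the ratio of Npc2 to Npc1 was 10.6 to 11.1 in iKO and 6.90 to 7.46 in WT.

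Stard4, which carries cholesterol through the cytosol and is a known SREBP target, stood at 33.1, 33.4, 35.1 and 34.0 TPM in iKO and at 24.6, 29.4, 29.4 and 26.3 TPM in WT. It rose 1.24-fold without overlap (adjusted p = 0.00279). Abcg1, a sterol exporter, stood at 17.1, 16.9, 18.9 and 17.8 TPM in iKO and at 12.8, 13.7, 13.8 and 13.9 TPM in WT, a 1.3-fold rise (adjusted p = 0.000335). Abca1, the other LXR-controlled exporter of the list, did not pass (15.1 to 15.9 TPM in iKO against 16.1 to 17.4 TPM in WT, log2 fold change -0.10, adjusted p = 0.067), although its groups did not overlap, and was called lower without WT replicate 1 (adjusted p = 0.0479). Of the receptors, Nr1h2 rose from 245 ± 4.07 to 267 ± 4.93 TPM (SD, n = 4, adjusted p = 0.000984). Nr1h3 was far less abundant, at 5.12 to 5.45 TPM in iKO and at 4.32, 4.18, 4.66 and 6.09 TPM in WT (adjusted p = 0.346). WT replicate 4 stood above the rest there, and without it Nr1h3 was called higher (log2 fold change 0.22, adjusted p = 0.0285).

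The fatty acid enzymes also split, with 1 of 4 higher and 2 lower (all tested genes: 20.7% higher and 31.9% lower). Scd1 and Scd2 encode desaturases that make monounsaturated fatty acids, and Scd2 is the main form in brain. Scd1 (ENSMUSG00000037071.3) stood at 24.2, 25.2, 23.7 and 24.9 TPM in iKO and at 15.9, 16.5, 17.3 and 17.6 TPM in WT, a 1.45-fold rise with no overlap (log2 fold change 0.52, adjusted p = 1.87e-05). Scd2 stood at 279, 287, 279.8 and 275 TPM in iKO and at 294, 310.2, 307 and 300.4 TPM in WT, a small difference (-0.11, adjusted p = 0.00248) that was not called with trimmed mean scaling (-0.05, adjusted p = 0.0677) or by the authors' deposited table. The ratio of Scd2 to Scd1 was 11.1 to 11.8 in iKO and 17.0 to 18.8 in WT. An Scd2 transcript matched an Scd1 transcript at 95.5% identity over 623 bases, so some reads could have been split between them.

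Fasn, fatty acid synthase, was the gene on which the tables differed most. In TPM it stood at 50.1, 46.7, 55.4 and 46.7 TPM in iKO and at 56.8, 60.6, 61.0 and 62.1 TPM in WT, with no overlap and a difference of -0.27 on the log2 scale (SE 0.0579, adjusted p = 0.00398). For Fasn the authors' deposited table gave 0.02 (adjusted p = 0.534). Acaca, which supplies malonyl-CoA to fatty acid synthase, stood between 10.6 and 12.6 TPM in the iKO libraries and between 10.7 and 12.4 TPM in WT and did not pass (adjusted p = 0.518).

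**Figure D3:**
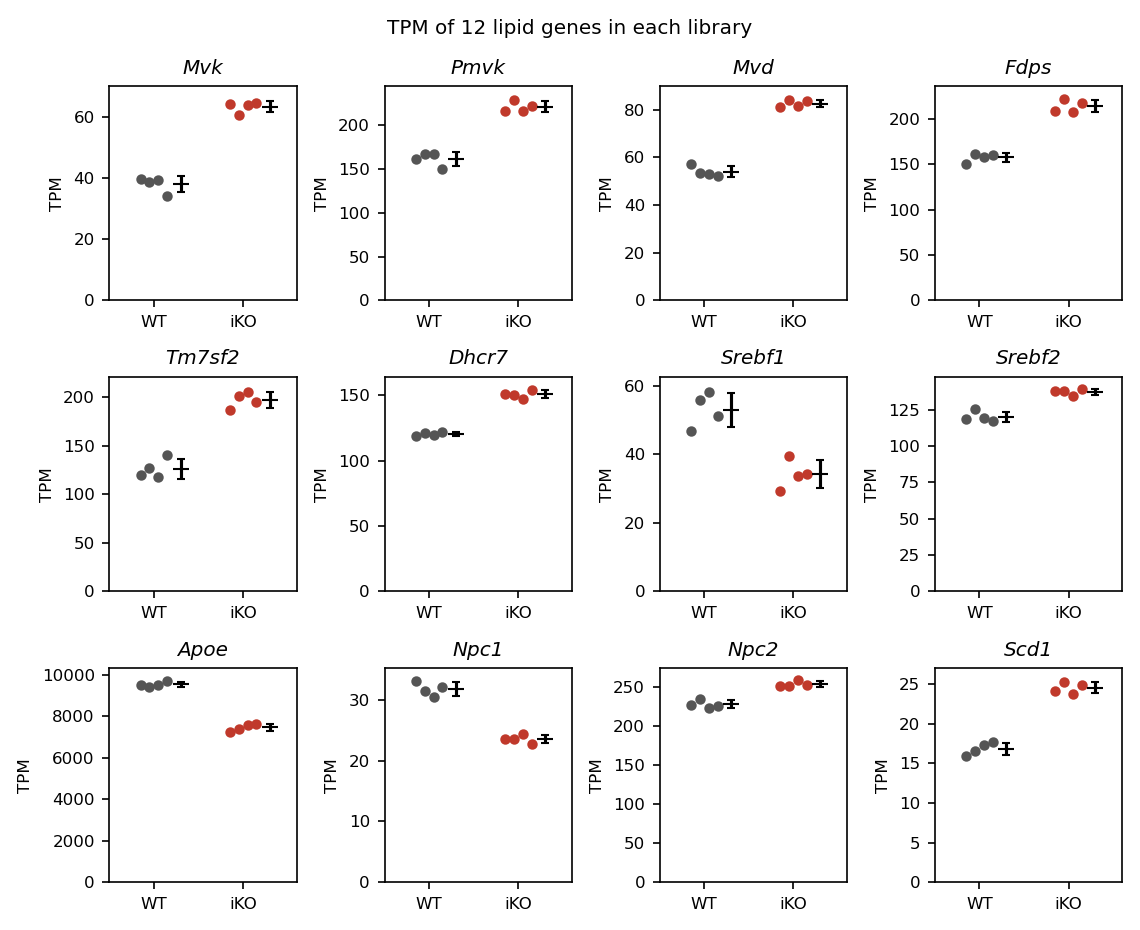
TPM in each of the 4 WT (grey) and 4 iKO (red) libraries for 12 of the genes, with the mean and SD as black bars and every axis starting at 0. All 12 are among the 25 of the 35 genes whose groups do not overlap (49.2% of all tested genes), so the separation in each panel follows from the choice of genes. The highest fold change is that of Mvk, from 38.1 to 63.5 TPM (1.67-fold).

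**Figure D4:**
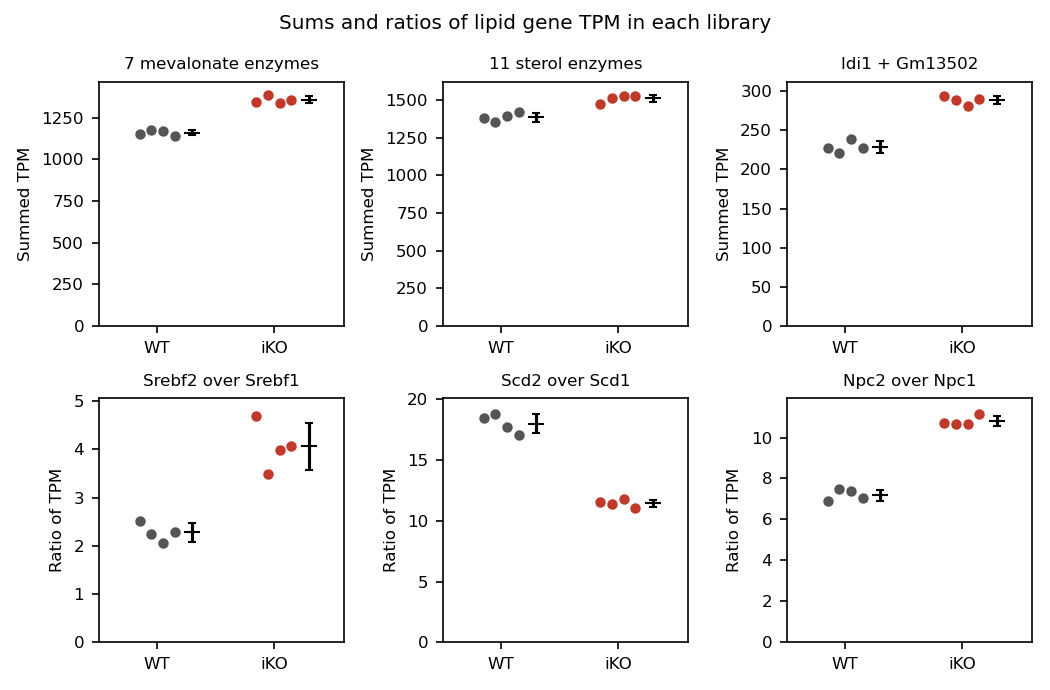
Summed TPM of the mevalonate enzymes, of the sterol enzymes and of Idi1 with its copy Gm13502 (top), and ratios of TPM for 3 pairs of genes (bottom), in each library with mean and SD as black bars. Each sum is higher in every iKO library than in any WT library, and the Scd2 to Scd1 ratio is lower in every iKO library.

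The spread between libraries of a group was small for most of the genes. The coefficient of variation was 0.558% to 18.1% in WT (median 3.83%) and 0.805% to 12.2% in iKO (median 2.84%). The authors' deposited table gave the same sign as the TPM fit for 31 of the 35 genes, the exceptions being Acat2, Sqle, Msmo1 and Fasn. It called 21 in the same direction and none in the opposite one, while 4 were called in TPM only, 5 in the deposited table only and 5 in neither. Its fold changes were higher by a median of 0.08 for these genes and of 0.07 for all tested genes.

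A wider list of 90 other lipid genes, of which 89 were tested, held 16 that were higher, 37 that were lower and 36 that did not pass. All tested genes leaned the same way, with 20.7% higher and 31.9% lower, and the median log2 fold change was -0.12 for the list and -0.06 for all tested genes. With trimmed mean scaling 18 genes of the list were higher and 26 lower, beside 25.9% and 25.9% of all tested genes. Of 11 genes of SREBP processing and degradation, 2 were higher and 5 lower (63.6% called, beside 52.6% of all tested genes). Aup1, which takes part in protein degradation at the endoplasmic reticulum, rose from 168 ± 12.4 to 205 ± 12.6 TPM (SD, n = 4, adjusted p = 0.00368).

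Of 9 genes of isoprenoid and ketone branches, 2 were higher and 2 lower. This is 44.4% called, less than the 52.6% of all tested genes (20.7% higher and 31.9% lower). Acat1, the mitochondrial thiolase, rose from 128 ± 9.77 to 176 ± 5.06 TPM (SD, n = 4, adjusted p = 9.73e-05), and Dhdds, of dolichol synthesis, rose by 0.34 on the log2 scale.

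Among 28 tested genes of sterol transport and oxidation, 2 were higher and 12 lower. The called share of 50% was close to the 52.6% of all tested genes (20.7% higher and 31.9% lower). Clu, an apolipoprotein of astrocytes, fell by 0.51 on the log2 scale, and the lipoprotein receptor genes Lrp1 and Vldlr fell by 0.33 and 0.60. For Lrp1 the authors' deposited table gave a smaller fall (-0.11). Other lipoprotein receptor genes of the list did not fall: Lrp8 rose by 0.21 (adjusted p = 0.00162) and Scarb1 did not pass (0.05, adjusted p = 0.345). Gramd1b, which carries sterol from the plasma membrane to the endoplasmic reticulum, fell from 9.53 ± 0.924 to 5.33 ± 0.372 TPM (SD, n = 4, adjusted p = 6.29e-05). Of 41 fatty acid and glycerolipid genes, 10 were higher and 18 lower (68.3% called, beside 52.6% of all tested genes). Thrsp, a lipogenic protein gene, fell from 218 ± 1.93 to 130.2 ± 2.78 TPM (SD, n = 4, adjusted p = 2.77e-08) and Fads2, a desaturase of polyunsaturated fatty acids, by 0.33 on the log2 scale. The fatty acid binding protein genes Fabp7 and Fabp5 rose by 0.48 and 0.44. Fabp7 is also a marker of radial glia.

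**Figure D5:**
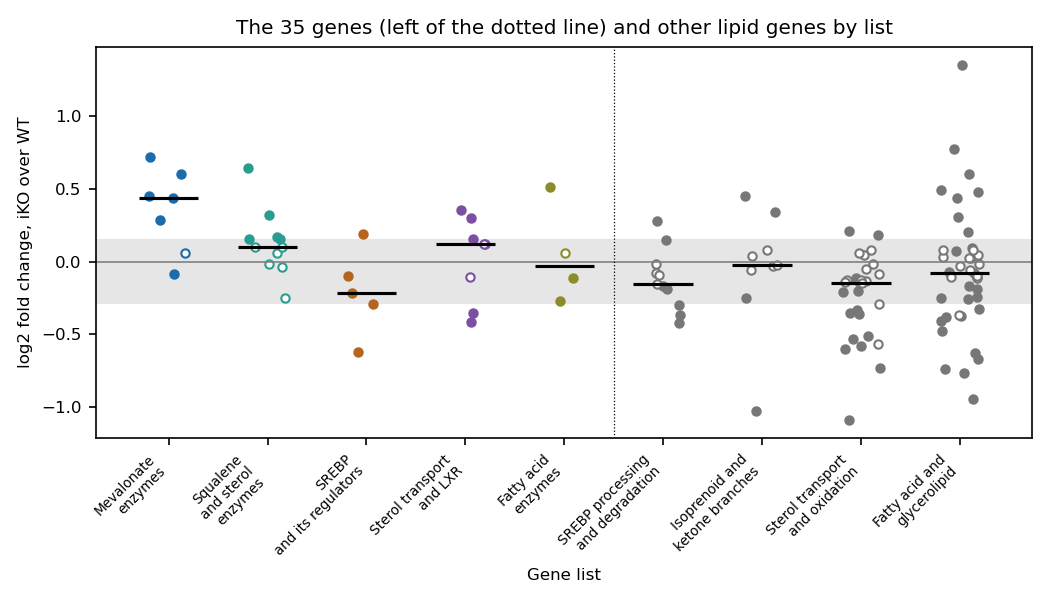
Log2 fold change of each tested gene (points, filled where the adjusted p was under 0.05) by list, with the list median as a black line and the middle 50% of all tested genes in grey. The mevalonate enzymes have a median of 0.44, and the 4 lists right of the dotted line have medians between -0.16 and -0.02.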

How the data were processed

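RNA of 4 iKO and 4 WT NSPC libraries was amplified by Smart-Seq2 and sequenced as paired ends, per the labels' protocols. The authors deposited TPM values for 55385 genes. They also deposited their own comparison, whose headings, per the file headers, are those of DESeq2: a mean normalized signal, a log2 fold change, its standard error and test score, and p-values, unadjusted and adjusted. The sources used here do not give the aligner, quantifier, build or annotation.

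The filter required 1 TPM or more in 4 libraries or more, which 16413 genes passed, all 35 members among them. Their log2(TPM + 1) values were tested by group alone in limma 3.58.1 (R 4.3.3; trended, robust moderation). This scale understates changes of low genes. The procedure was tested on simulated data. The members, lists and naming rule (all 35 members, and up to 4 genes with the smallest p of each other list) were chosen with earlier results of these data known. Lrp8 and Scarb1 were named afterwards, outside this rule. Alternatives were quantile normalization, scaling by trimmed mean of M values factors, other pseudocounts and filters, array weights, a replicate block, a sex score and leaving out each library. The sex score subtracted the log2(TPM + 1) of Xist from the average over Uty, Kdm5d, Eif2s3y and Ddx3y. Near-identical copies (blastn 2.17.0, at least 95% identity over at least 50% of the shorter transcript) and overlapping exons came from GENCODE M21, which held 99.6% of the gene IDs and may differ from the authors' annotation. Single values of 2 genes of the other lists are not reported here.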

Additional observations from a re-analysis of the deposited data

Results flagged for a closer look

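Of 70 groups of 4 values (35 genes in iKO and in WT), 3 held a library far from its group, about what chance gives at 1 in 20. Sqle in iKO replicate 1 stood at 293 TPM, below the 297 to 298 TPM of the other iKO libraries. Abcg1 in WT replicate 1 stood at 12.8 TPM, below 13.7 to 13.9 TPM. Npc2 in iKO replicate 3 stood at 259 TPM, above 251 to 253 TPM. Each gap is small beside the level of the gene.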

How the results depend on the processing

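Of the 25 called members, 19 (15 higher and 4 lower) kept their call and direction under every alternative other than the sex score. The share of all called genes that did so is not given here, so this count does not set the members apart. With the sex score as covariate, 423 genes were called in the whole table (195 higher and 228 lower), 1 member (1 higher and 0 lower) and 4 other lipid genes (1 higher and 3 lower). In that fit Ebp (-0.47), Scap (0.32), Abca1 (0.089) and Acaca (-0.32) changed sign, with adjusted p of 0.43 to 0.83, and Mvk (0.64, adjusted p = 0.163) and Tm7sf2 (0.79, adjusted p = 0.124) did not pass. With trimmed mean factors 5 members were lower, and Sqle (0.051, adjusted p = 0.0291) and Msmo1 (0.027) changed sign. In the authors' deposited comparison Acat2 (0.014), Sqle (0.067), Msmo1 (0.006) and Fasn (0.024) changed sign. With quantile normalization Sqle (-0.06) and Msmo1 (-0.08) were called lower. The cause of these differences was not tested. Leaving out each library gave 23 to 26 members called, beside 7808 to 8003 genes in all (8629 with every library). Same-numbered libraries did not deviate together (correlations -0.04 to 0.00), so the numbers were not taken as pairs; with the replicate block 25 members (Nsdhl lost and Sc5d gained), 51 other lipid genes and 8097 genes in all were called. Pseudocounts of 0.1 and 5, array weights and a mean TPM of at least 5 changed no member's call, and without a filter that of Nsdhl was lost (adjusted p = 0.0745). No member was below the filter, so no separate test of low genes was run. Without read depth, counting error could not be set beside the spread.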
